A study of Mus musculus with 17 samples.

Results

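The 9 genes described here encode titin and proteins of the Z-disc and the M-band, the transverse structures that hold the sarcomere of heart muscle together. They were Ttn, Actn2, Myoz2, Tcap, Ldb3, Csrp3, Nexn, Myom1 and Myom2, chosen by name, and they were 9 of the 31647 features in the count table. Transcript ends were counted in 17 male C57BL/6J wild-type mice aged 8 to 11 weeks at surgery. In 9 mice the left anterior descending coronary artery was permanently ligated, and the infarct zone (IZ) was dissected 5 days later. In the 8 sham mice the artery was not tied, and left ventricular tissue was taken 5 days after surgery. The comparison asked how these transcripts changed in infarcted myocardium. Each library came from 1 mouse. No batch, date or lane could be read from the labels.

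A sarcomere runs from one Z-disc to the next. At the Z-disc, thin filaments of opposite polarity are cross-linked by sarcomeric α-actinin, and the amino-terminal ends of titin are anchored and capped there. Titin then spans to the M-band in the middle of the sarcomere, where myomesins link neighbouring thick filaments and titin to each other, so that titin serves as a spring and a scaffold of the contractile unit. Several Z-disc proteins also carry signals on stretch and load to the nucleus, and mutations in many of these genes cause inherited cardiomyopathy.

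All 9 genes are annotated as protein coding in the mouse build GRCm38 (mm10). Ttn, the gene with the longest coding sequence known in mammals, lies on the minus strand of chromosome 2 from 76703980 to 76982547, a span of 278568 bases. Tcap lies on the plus strand of chromosome 11 from 98383811 to 98384953 and spans 1143 bases. Actn2 (chromosome 13, 12269426 to 12340760), Myoz2 (chromosome 3, 123006206 to 123035015), Ldb3 (chromosome 14, 34526603 to 34588682), Csrp3 (chromosome 7, 48830398 to 48848033) and Nexn (chromosome 3, 152236982 to 152266350) lie on the minus strand. Myom1 (chromosome 17, 71002633 to 71126856) and Myom2 (chromosome 8, 15057653 to 15133541) lie on the plus strand. The method reads 1 tag near the 3′ end of a transcript, so counts of different genes can be compared without division by length, and the splice forms of Ttn, which has 21 annotated protein-coding transcripts, could not be told apart. No other gene shared a near-identical 3′ end with any of the 9. A predicted gene model inside Nexn on the same strand, Gm43185, held 1129 counts over the 17 libraries and averaged 64.8 CPM in sham and 8.11 CPM in the IZ. Reads of Nexn and of this model may have been divided between the 2 features.

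The 9 genes all fell, as described below, and the bases before their transcription starts are shown for 3 of the 4 that held a motif bound by MEF2 or serum response factor, which regulate muscle genes. MEF2 factors bind an A/T-rich site that recurs in muscle promoters, and serum response factor binds the CArG box. RefSeq (GRCm38.p6) gave promoters for 6 of the 9 genes, namely Ttn, Actn2, Myoz2, Ldb3, Csrp3 and Myom1, as 8 windows from 250 bases before to 50 after a start. The 250 bases before the start are printed 5′ to 3′ on the strand of the gene, from chr2:76982548-76982797 for Ttn (minus strand), chr3:123034988-123035237 for Myoz2 (minus strand) and chr14:34588682-34588931 for Ldb3 (minus strand). Capitals mark the MEF2 site in the first and second sequence and the CArG box in the third.
Ttn: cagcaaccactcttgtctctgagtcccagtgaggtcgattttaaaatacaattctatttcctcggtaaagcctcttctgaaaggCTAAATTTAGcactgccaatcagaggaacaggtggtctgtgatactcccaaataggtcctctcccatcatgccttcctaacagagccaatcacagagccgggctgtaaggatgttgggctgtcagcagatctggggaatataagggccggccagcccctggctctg
Myoz2: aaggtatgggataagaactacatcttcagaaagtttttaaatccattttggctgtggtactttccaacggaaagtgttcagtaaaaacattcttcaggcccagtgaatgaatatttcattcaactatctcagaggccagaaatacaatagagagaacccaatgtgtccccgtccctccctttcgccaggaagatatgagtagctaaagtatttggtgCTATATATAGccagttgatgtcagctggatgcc
Ldb3: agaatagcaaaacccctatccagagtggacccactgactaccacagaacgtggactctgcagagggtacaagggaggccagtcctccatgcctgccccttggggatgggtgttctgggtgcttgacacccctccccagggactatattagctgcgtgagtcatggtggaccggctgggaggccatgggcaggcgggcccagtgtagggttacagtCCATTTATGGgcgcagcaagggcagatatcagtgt
The MEF2 site began 166 bases before the start of Ttn and 33 bases before that of Myoz2, and these were the 2 genes of 6 that held it. By window it was in 2 of the 8, against 3.19% of 32851 RefSeq promoter windows searched on both strands over the same length. The start of Myoz2 used here lies inside the annotated gene. Of its 250 printed bases 28 are annotated exon, into which the MEF2 site reaches. The CArG box began 35 bases before the start of Ldb3 and 99 bases before a start of Myom1 that lies inside the annotated gene, so 2 genes of 6 held it. By window it was in 3 of the 8, the same Ldb3 site being counted in each of its overlapping windows, against 1.63% of all promoters. CATTCC, the MCAT motif, was present in 1 of the 6 genes (Ttn), or 1 of the 8 windows, and in 14.7% of all promoters. GATAA was present in Myoz2 and Myom1, or 2 of the 8 windows, and in 25.4% of all promoters. TATAAA was present in none of the 6 and in 13.6% of all promoters. TATAAA can share bases with a MEF2 site or a CArG box, but no 2 matches in these 6 genes overlapped. A match is a run of letters in these windows and was not tested for binding.

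Total counts ran from 1820809 to 4257919 per sham library and from 1237675 to 4738307 per IZ library, and 12301 features had enough counts to be tested. The 9 genes together held 16857 to 31950 counts per sham library and 1390 to 14835 per IZ library, and the lowest count of any of them was 43 (Myom2, IZ). IZ replicate 1 stood apart. The 8 thick and thin filament genes used below as a cardiomyocyte reference (Myh6, Myl2, Myl3, Tnnt2, Tnni3, Tnnc1, Actc1, Mybpc3) made up 3.19% of its counts, against 0.449 to 1.004% in the other 8 IZ libraries and 4.03 to 5.67% in sham. The fold changes of the 9 genes are therefore given with and without it. Levels are in CPM, counts brought to one common library size after scaling by TMM (trimmed mean of M values), whose factors ran from 0.616 to 0.729 in sham and from 1.05 to 1.53 in the IZ. Fitted with total counts alone, the median log2 fold change of all tested genes moved from 0.05 to 1.13 and the 9 genes fell less, by 1.26 (Nexn) to 3.42 (Tcap) on the log2 scale, with every call kept.

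All 9 genes fell in the IZ, by 4.75-fold (Nexn) to 20.1-fold (Tcap), with a median log2 fold change of −2.82, and for each of them all 9 IZ libraries lay below all 8 sham libraries. Among all tested genes 69.5% changed in either direction, 33.1% fell, 16.5% had every IZ library below every sham library, and 7.89% fell with a log2 fold change under −2, as all 9 of these genes did. Genes of the reference fell alongside: their summed level was 63232 to 77881 CPM in sham and 2991 to 30397 CPM in the IZ (at most 7064 CPM without IZ replicate 1). In bulk tissue, fewer cardiomyocytes and less of these transcripts per cardiomyocyte cannot be told apart.

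**Figure D1:**
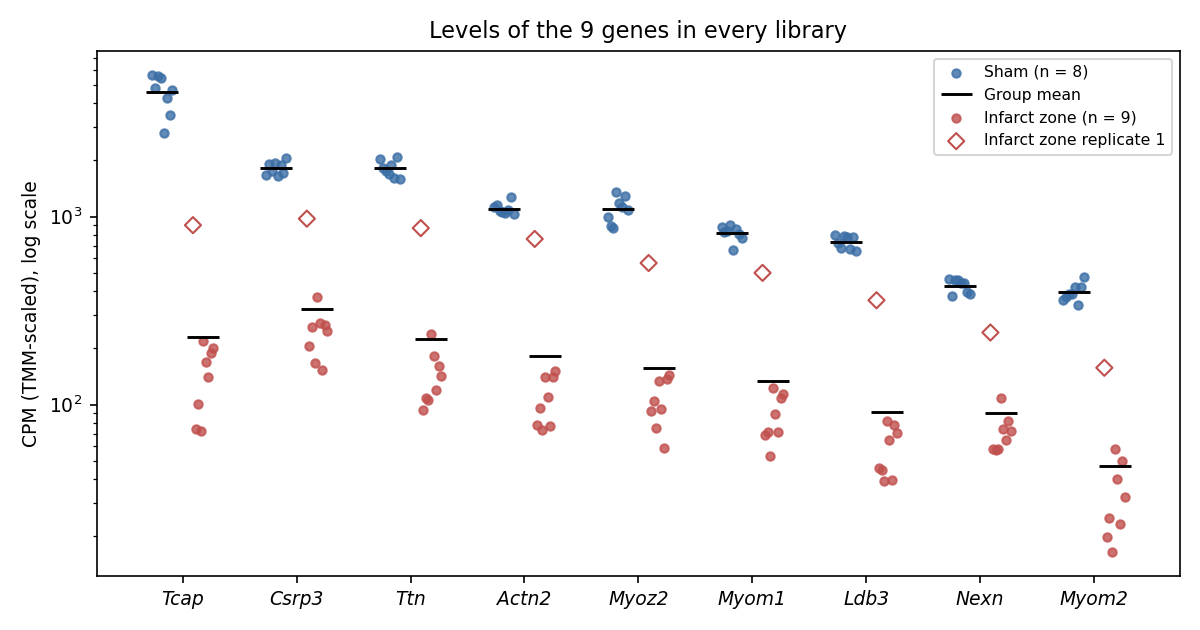
Level of each of the 9 genes in CPM (log scale) in every library, with sham in blue (n = 8), the IZ in red (n = 9), IZ replicate 1 as an open diamond and the group mean as a black line. For each gene all IZ points lie below all sham points, and the diamond is the highest IZ point, for example 900 CPM for Tcap against at most 218 CPM in the other IZ libraries.

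Titin, encoded by Ttn, ran from 1581 to 2070 CPM in sham with a median of 1782 CPM. In the IZ it ran from 93.6 to 868 CPM with a median of 143 CPM. The sham libraries were tightly grouped, and the single high IZ value came from replicate 1, the next highest being 236 CPM. The mean went from 1801 ± 182 CPM (SD, n = 8) to 224 ± 246 CPM (SD, n = 9), a log2 fold change of −3.01 (SE 0.37, adjusted p = 1.87e-07). Without IZ replicate 1 the IZ mean of Ttn was 143 CPM and the log2 fold change −3.70.

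Actn2 encodes sarcomeric α-actinin, the main cross-linker of actin at the Z-disc. Its sham libraries ran from 1025 to 1265 CPM (median 1073) and its IZ libraries from 73.1 to 760 CPM (median 110). IZ replicate 1 stood 5.06 times above the next highest IZ library, which had 150 CPM. The log2 fold change was −2.61 (SE 0.39, adjusted p = 2.62e-06), and −3.40 without that library.

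Tcap encodes telethonin, which caps the amino-terminal ends of titin at the Z-disc. It was the most abundant of the 9 in sham and the one that fell furthest. The sham libraries, in the order of their replicate numbers, stood at 5684, 4846, 5561, 5468, 2792, 4274, 3451 and 4728 CPM. The IZ libraries stood at 900, 74.0, 100.1, 72.6, 218, 168, 141, 187 and 200.5 CPM. Tcap also varied most among the sham mice, with replicates 5 and 7 lowest, yet the lowest sham library lay 3.10 times above the highest IZ library. The mean went from 4601 ± 1044 CPM (SD, n = 8) to 229 ± 257 CPM (SD, n = 9), which left 4.98% of the sham level. The log2 fold change was −4.33 (SE 0.44, adjusted p = 7.84e-09), and −5.04 without IZ replicate 1.

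Myoz2 encodes calsarcin-1, which binds α-actinin, telethonin and the phosphatase calcineurin. It ran from 871 to 1358 CPM in sham (median 1102) and from 58.6 to 566 CPM in the IZ (median 105). Leaving out IZ replicate 1, the highest IZ library stood at 143 CPM. Its log2 fold change was −2.82 (SE 0.35, adjusted p = 1.68e-07), and −3.43 without that library.

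Ldb3 encodes cypher, also called ZASP, a PDZ and LIM domain protein that binds α-actinin. It was among the steadiest of the 9 in sham, at 656 to 802 CPM (median 747), and ran from 39.2 to 359 CPM in the IZ (median 64.8). The fall was near that of Ttn, with a log2 fold change of −3.01 (SE 0.37, adjusted p = 1.42e-07), and −3.71 without IZ replicate 1.

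Csrp3 encodes muscle LIM protein, a Z-disc protein that is also found in the nucleus and takes part in the response to stretch. It ran from 1643 to 2054 CPM in sham (median 1818), close to Ttn, and from 152 to 974 CPM in the IZ (median 260), where it was the highest of the 9. The mean in the IZ was 323 ± 253 CPM (SD, n = 9), or 17.8% of the sham mean. The log2 fold change was −2.49 (SE 0.29, adjusted p = 7.51e-08), and −2.95 without IZ replicate 1.

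Nexn encodes nexilin, an actin-binding protein of the Z-disc and of the membrane junctions of cardiomyocytes. It ran from 380 to 465 CPM in sham (median 444) and from 57.5 to 242 CPM in the IZ (median 72.6). Nexn kept the largest part of its level, 21.1% of the sham mean, and its log2 fold change of −2.25 (SE 0.24, adjusted p = 1.81e-08) was the smallest of the 9. Without IZ replicate 1 it was −2.63, again the smallest of the 9.

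The M-band was represented by the 2 myomesins, which cross-link thick filaments. Myom1 ran from 661 to 906 CPM in sham (median 831) and from 52.9 to 501 CPM in the IZ (median 89.6), with a log2 fold change of −2.62 (SE 0.35, adjusted p = 5.27e-07), and −3.28 without IZ replicate 1. Myom2, the myomesin of fast and of adult cardiac muscle, ran from 340.1 to 478 CPM in sham (median 387) and from 16.5 to 157 CPM in the IZ (median 32.1). It was the least abundant of the 9 in both groups. Its log2 fold change of −3.09 (SE 0.34, adjusted p = 3.30e-08) was −3.67 without that library.

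**Figure D2:**
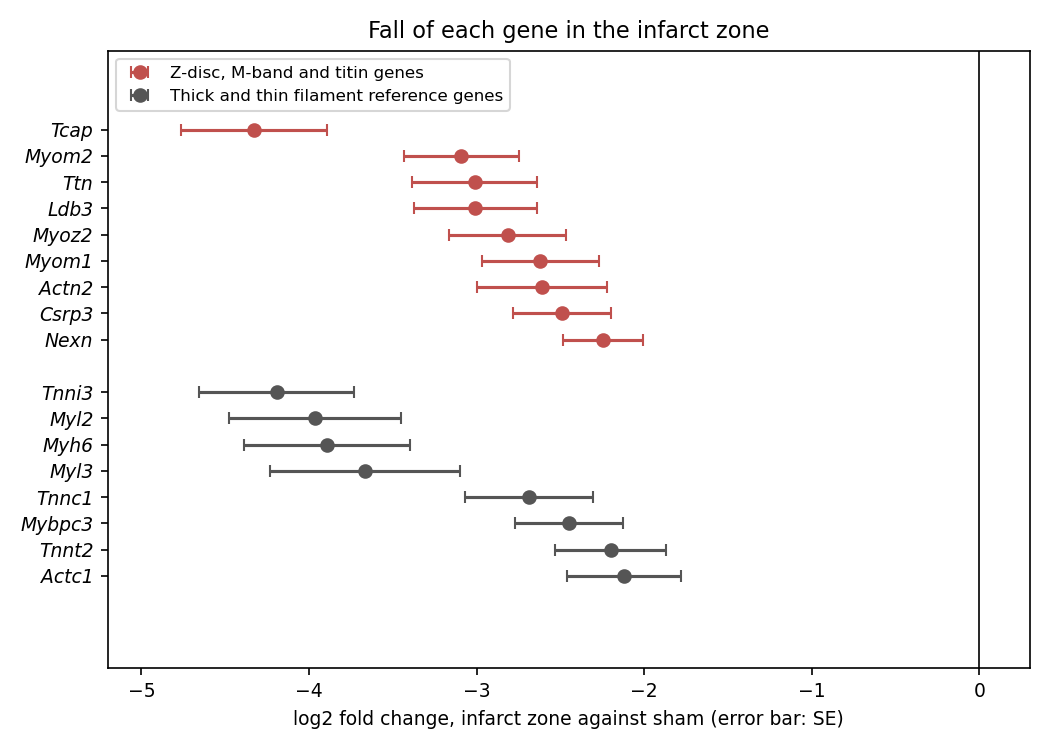
The log2 fold change of the IZ against sham for the 9 genes (red) and the 8 thick and thin filament reference genes (grey), each with its standard error from edgeR (8 sham and 9 IZ libraries). Tcap, at −4.33, lies to the left of every reference gene, but its bar overlaps those of Tnni3, Myl2, Myh6 and Myl3. The other 8 genes, at −3.09 to −2.25, lie between Tnni3 at −4.19 and Actc1 at −2.12.

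The order of the levels differed between the groups. In sham, Tcap ranked 38th among all tested genes by mean CPM, Csrp3 66th, Ttn 67th, Actn2 110th, Myoz2 112th, Myom1 151st, Ldb3 166th, Nexn 278th and Myom2 305th. Tcap exceeded Csrp3 in 8 of 8 sham libraries. Csrp3 exceeded Ttn in 4 of 8 and Actn2 exceeded Myoz2 in 3 of 8, so those neighbours could not be put in order. Ttn over Actn2, Myoz2 over Myom1 and Ldb3 over Nexn held in 8 of 8, Myom1 over Ldb3 in 7 of 8 and Nexn over Myom2 in 6 of 8.

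In the IZ, Csrp3 stood first of the 9 and exceeded Tcap in 9 of 9 libraries, the opposite of the order in sham. Its rank among all tested genes was 249th, followed by Tcap at 410th, Ttn at 421st, Actn2 at 566th, Myoz2 at 669th, Myom1 at 813th, Ldb3 at 1269th, Nexn at 1281st and Myom2 at 2739th. Tcap exceeded Ttn in 4 of 9 libraries, so they could not be put in order. Ldb3 exceeded Nexn in 1 of 9 IZ libraries after 8 of 8 in sham, and the ranks by mean CPM, which put Ldb3 first, rested on that library, IZ replicate 1, where Ldb3 stood at 359 and Nexn at 242 CPM.

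Of all counts, the 9 genes held 0.868 ± 0.101% in sham (SD, n = 8) against 0.191 ± 0.143% in infarcted tissue (SD, n = 9), where IZ replicate 1 held 0.560%. Within that pool the make-up shifted from Tcap to Csrp3 and Nexn. Shares within a pool sum to 100%, so a fall in 1 share raises the others, and these shares are given as a description with no test. Tcap supplied 35.6 ± 5.73% of the counts of the 9 genes in sham and 14.6 ± 3.04% in the IZ, with all 9 IZ libraries below all sham libraries. Csrp3 went from 14.3 ± 1.34% to 23.8 ± 3.74%, Nexn from 3.37 ± 0.361% to 7.06 ± 1.32% and Myom1 from 6.40 ± 0.312% to 8.87 ± 0.663%, each with all 9 IZ libraries above all sham libraries. Actn2 went from 8.67 ± 0.963% to 11.3 ± 1.48% and Myoz2 from 8.66 ± 1.69% to 10.6 ± 1.70%, with 6 and 5 of the 9 IZ libraries above all sham libraries. The shares of Ttn (14.2 ± 2.02% and 14.6 ± 1.88%), Ldb3 (5.77 ± 0.691% and 5.93 ± 0.521%) and Myom2 (3.12 ± 0.499% and 3.18 ± 0.599%) overlapped. IZ replicate 1, which kept the most of these transcripts, had a Tcap share of 16.9%, inside the IZ range, while its shares of Csrp3 (18.3%) and Nexn (4.54%) were the lowest of the IZ libraries.

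**Figure D3:**
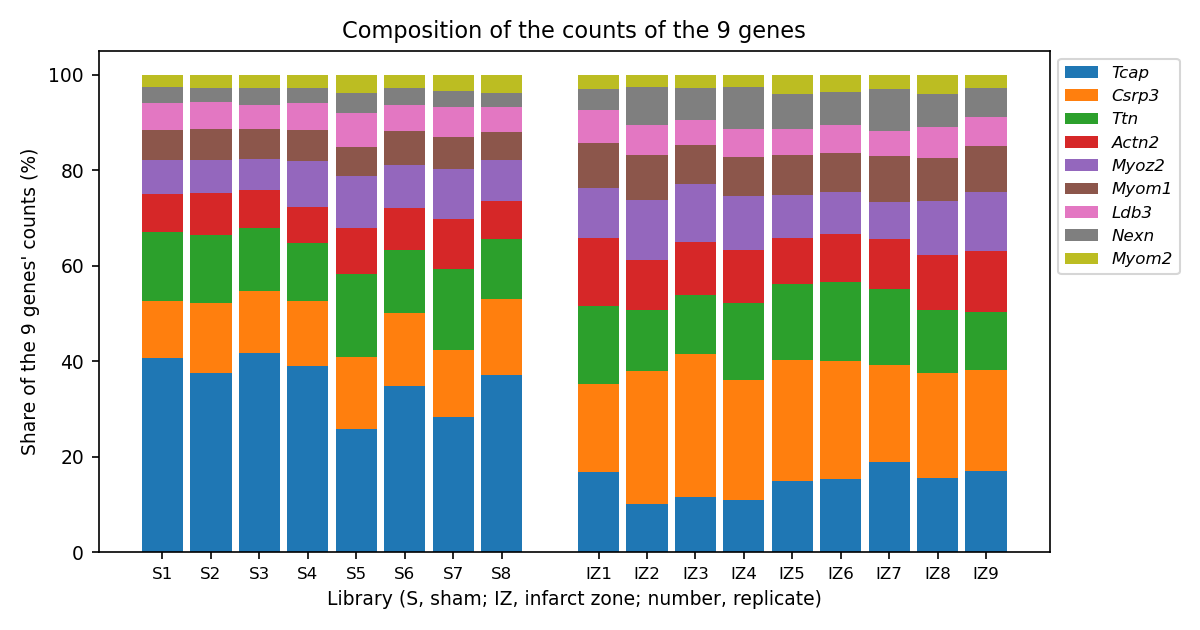
Share of each of the 9 genes in their summed counts (%, each bar sums to 100%) for the 8 sham (S) and 9 IZ libraries. The Tcap block spans 25.7 to 41.6% in sham and 10.1 to 18.8% in the IZ, and the Csrp3 block 12.0 to 16.1% and 18.3 to 29.9%.

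To set the 9 genes against other transcripts of the same cells, each was also expressed per 1000 counts of the 8 reference genes and fitted with that sum as the library size. All 8 reference genes fell on the TMM scale, unequally, from −2.12 (Actc1) and −2.20 (Tnnt2) to −3.97 (Myl2) and −4.19 (Tnni3) in log2 fold change, and from −2.62 (Actc1) to −5.00 (Tnni3) among these 4 without IZ replicate 1. On the reference scale 97.5% of all tested genes were called, 97.0% higher and 0.528% lower, with a median log2 fold change of 3.92. Of the 9 genes 4 were called higher (Actn2, Csrp3, Nexn and Myom1), 1 lower (Tcap) and 4 were not called, with a median of 0.51. The 8 reference genes were themselves all called against their own sum, 4 higher and 4 lower. They ran from −1.03 (Tnni3) to 1.27 (Actc1), close to the range of the 9 genes, −1.10 (Tcap) to 1.29 (Nexn). The calls are thus about the size of the spread within the reference. In simulated data of this size, with 200 of 12301 genes changed by 1 on the log2 scale, the reference fit called 13% of them. The TMM fit called 81%. With 97.5% of genes called in the real data, the adjusted threshold was less strict. The 13% therefore does not measure the sensitivity for these 9 genes. Nor does the 81%, since the TMM fit called 69.5% of genes in the real data. A missed threshold is still no sign that a ratio was unchanged.

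Tcap was the gene that fell relative to the reference. It stood at 44.2 to 83.7 per 1000 reference counts in sham (median 65.6) and at 21.5 to 41.8 in the IZ (median 30.1), so that every IZ library lay below every sham library, as for 0.244% of tested genes. IZ replicate 1, with 29.6, sat near the IZ median. The log2 fold change was −1.10 (SE 0.28, 95% interval −1.66 to −0.54, edgeR adjusted p = 0.000246), and also −1.10 without that library. With a second reference of calcium-handling, oxygen-carrying and lipid-binding genes (Ryr2, Pln, Casq2, Hrc, Srl, Mb, Fabp3), which themselves fell by a median of 3.57 on the log2 scale, the call was lost (log2 fold change −0.57, adjusted p = 0.121).

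Nexn and Csrp3 rose relative to the reference. Nexn stood at 4.99 to 7.03 per 1000 reference counts in sham (median 5.84) and at 7.95 to 19.4 in the IZ (median 15.2), a log2 fold change of 1.29 (SE 0.30, 95% interval 0.69 to 1.90, edgeR adjusted p = 6.41e-05). Csrp3 stood at 22.0 to 27.5 in sham (median 25.6) and at 32.0 to 59.5 in the IZ (median 52.8), a log2 fold change of 0.97 (SE 0.28, 95% interval 0.40 to 1.53, adjusted p = 0.0011). For both, every IZ library lay above every sham library, as did 81.1% of tested genes on this scale, and IZ replicate 1 was the IZ library nearest to sham. Without that library the log2 fold changes were 1.37 for Nexn and 1.03 for Csrp3, and both calls held in all 22 alternatives.

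Actn2 and Myom1 rose with smaller log2 fold changes. Actn2 stood at 13.2 to 16.9 per 1000 reference counts in sham and at 19.8 to 25.0 in the IZ, with no overlap, a log2 fold change of 0.58 (SE 0.28, 95% interval 0.02 to 1.14, edgeR adjusted p = 0.0441). That call rested on the whole set of libraries, since it held in 3 of the 17 fits that left out 1 library (IZ replicates 1, 4 and 5) and was lost in the others, with adjusted p of 0.0517 to 0.0809. Myom1 stood at 9.93 to 12.6 in sham and at 16.4 to 21.2 in the IZ, with no overlap, a log2 fold change of 0.68 (SE 0.28, 95% interval 0.11 to 1.24, adjusted p = 0.0207). The calls of both genes were lost when Myh6 or Myl2 was taken out of the reference.

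Ttn, Myoz2, Ldb3 and Myom2 did not pass the threshold. Their log2 fold changes relative to the reference were 0.26 for Ttn (95% interval −0.30 to 0.82, edgeR adjusted p = 0.355), 0.51 for Myoz2 (−0.05 to 1.08, 0.0771), 0.25 for Ldb3 (−0.32 to 0.82, 0.389) and 0.25 for Myom2 (−0.35 to 0.85, 0.413). Without IZ replicate 1 Myoz2 passed it (0.54, adjusted p = 0.00426). As fitted, these intervals allow changes of either sign for all 4 genes. Their widths are drawn toward a trend over all tested genes and do not measure the spread of each gene alone. Between 4 and 7 of the 9 IZ libraries lay above all sham libraries, 7 for Myoz2 and 4 for each of the others. The myomesins thus gave 0.68 for Myom1 and 0.25 for Myom2, intervals that overlap, and the difference itself was not tested.

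**Figure D4:**
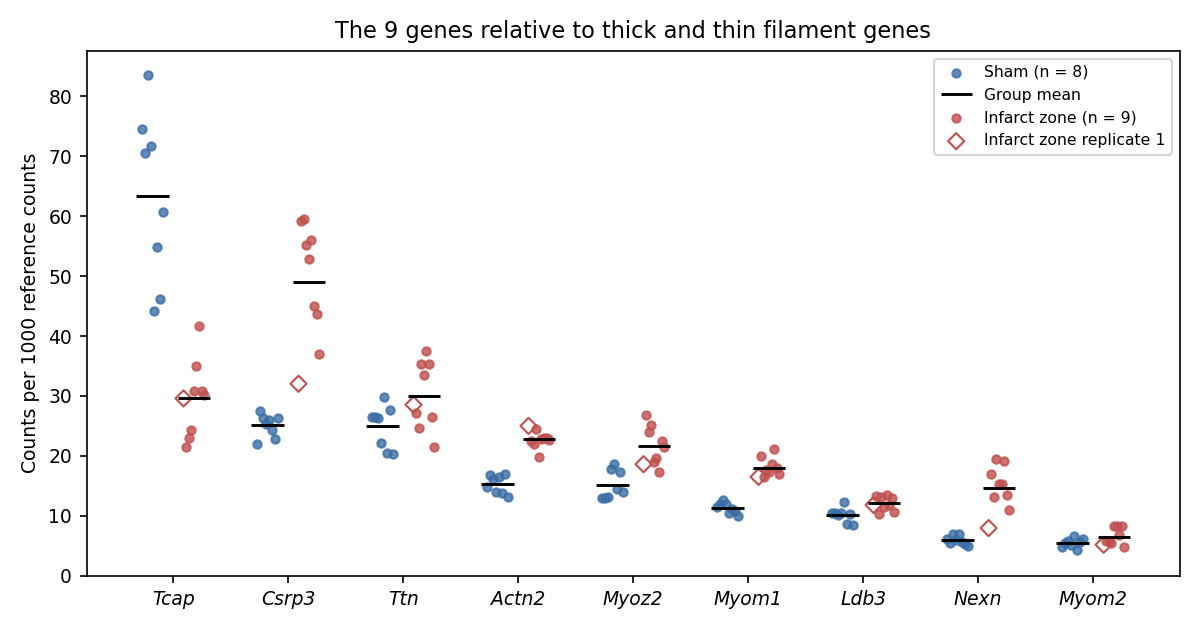
Counts of each of the 9 genes per 1000 counts of the 8 thick and thin filament reference genes, in sham (blue, n = 8) and the IZ (red, n = 9), with IZ replicate 1 as an open diamond and group means as black lines. Tcap drops from a mean of 63.3 to 29.6, while Csrp3 goes from 25.1 to 49.0 and Nexn from 5.94 to 14.6.

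Actn2 and Csrp3 have relatives of the same family that are expressed outside striated muscle, and these rose where Actn2 and Csrp3 fell. Actn1 and Actn4, the non-muscle α-actinins of stress fibres and adhesions, went from 41.5 ± 7.84 to 308 ± 57.5 CPM (log2 fold change 2.90, SE 0.15, edgeR adjusted p = 4.73e-13) and from 118 ± 16.3 to 287 ± 19.2 CPM (1.28, SE 0.11, adjusted p = 3.88e-10). Csrp1 and Csrp2, cysteine-rich LIM proteins of smooth muscle and fibroblast-like cells, went from 56.3 ± 8.40 to 196 ± 50.7 CPM (1.80, SE 0.17, adjusted p = 3.33e-09) and from 40.0 ± 10.9 to 351 ± 75.0 CPM (3.13, SE 0.17, adjusted p = 9.30e-13). For all 4, every IZ library lay above every sham library, as for 16.6% of all tested genes, and IZ replicate 1 was the lowest IZ library.

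Actn2 and Csrp3 each held a smaller share of the summed level of their family in the IZ than in sham. This share was examined after the values had been seen and is given as a description. Actn2 made up 87.4 ± 1.59% of the summed CPM of Actn1, Actn2 and Actn4 in sham, and 20.2 ± 16.3% in the IZ, where IZ replicate 1 held 62.7% and the other libraries 10.9 to 20.8%. The sum of the 3 genes went from 1261 ± 85.3 to 776 ± 173 CPM. Csrp3 made up 94.9 ± 0.905% of the sum of Csrp1, Csrp2 and Csrp3 in sham and 34.3 ± 15.8% in the IZ, where IZ replicate 1 held 74.0% and the others 22.5 to 39.0%. That sum went from 1913 ± 142 to 870 ± 196 CPM. In the 12 non-muscle relatives of Z-disc proteins as a whole, 11 rose, against 36.3% of all tested genes, and Pdlim4 was not called (0.06, at −0.01 without IZ replicate 1, and 1.13 and called with total counts alone), with Pdlim1 the weakest to rise (0.40). Fibroblast markers, the collagen genes among them, rose with these genes, 5 of 6 called (Dcn, at 0.04 and at −0.05 without IZ replicate 1, was not) and a summed level of 1463 to 2860 CPM in sham against 12250 to 20172 CPM in the IZ. Macrophage markers also rose, 6 of 6 called, from 332 to 487 CPM up to 1836 to 5024 CPM. Their part in the result was not tested. Of the relatives of Myoz2 and of the myomesins, Myoz1 had no count in sham and at most 9 in an IZ library, and Myom3 had at most 5 in sham and 3 in the IZ.

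**Figure D5:**
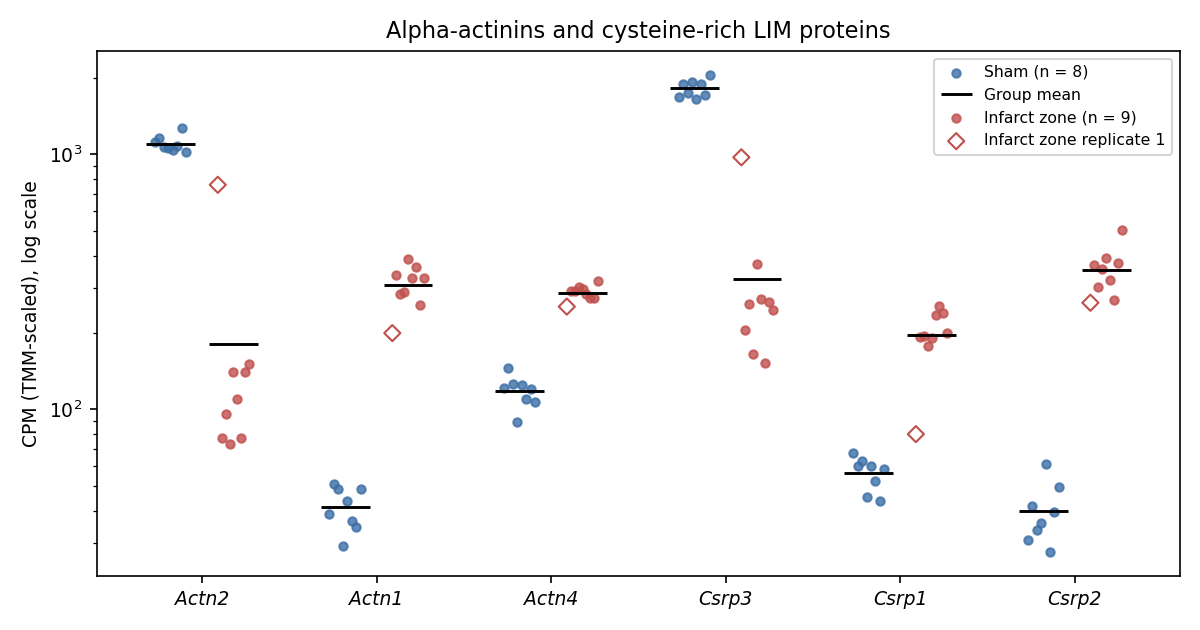
Level in CPM (log scale) of the α-actinin genes Actn2, Actn1 and Actn4 and of the cysteine-rich LIM protein genes Csrp3, Csrp1 and Csrp2 in sham (blue, n = 8) and the IZ (red, n = 9), with IZ replicate 1 as an open diamond and group means as black lines. Actn2 and Csrp3 drop below Actn1 and Csrp2 in the IZ means, 180 against 308 CPM and 323 against 351 CPM.

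Other genes of the Z-disc did not move as one. Of 19 listed, 16 were tested, and 11 fell (33.1% of all tested genes did), 1 rose (36.3%) and 4 were not called, with a median log2 fold change of −1.19. Myot, which encodes the α-actinin binding protein myotilin, fell furthest, from 29.6 ± 11.7 to 1.83 ± 3.91 CPM (−4.08, edgeR adjusted p = 1.75e-07), of which IZ replicate 1 held 12.2 CPM and the others at most 1.14 CPM. Without that library its log2 fold change was −5.50. Fhod3, a formin that organises sarcomeric actin, fell from 170 ± 36.8 to 16.1 ± 16.4 CPM (−3.41, and −4.03 without IZ replicate 1). Pdlim3, which encodes the actinin-associated LIM protein, was the gene that rose, from 21.0 ± 5.79 to 52.9 ± 18.5 CPM (1.31, adjusted p = 8.97e-06), with 7 of 9 IZ libraries above all sham libraries. The 4 genes not called were Des (desmin, −0.31), Palld (palladin, −0.14) and the actin capping genes Capza2 (0.04) and Capzb (0.07). Without IZ replicate 1, Des (−0.40, edgeR adjusted p = 0.0337) and Palld (−0.23, adjusted p = 0.0478) fell. Scaled by total counts alone, 7 genes of this list fell and 5 rose, the latter including those 4. Their log2 fold changes were 0.73 for Des, 0.92 for Palld, 1.12 for Capza2 and 1.15 for Capzb. Of all tested genes 10710 were called with that scaling, and 1534 of those were lower.

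All 8 tested genes of the 10 on the M-band list were called lower, against 33.1% of all tested genes, with a median log2 fold change of −3.30. Ckm, muscle creatine kinase, which is bound at the M-band, went from 2166 ± 210 to 128 ± 259 CPM (−4.08, edgeR adjusted p = 9.26e-06). Its IZ mean was carried by replicate 1 at 817 CPM, and without it the mean was 41.8 CPM and the log2 fold change −5.77. Lrrc39, or myomasp, a partner of myosin at the M-band, fell by 3.89 on the log2 scale (−4.57 without IZ replicate 1). Trim63, the ubiquitin ligase MuRF1 that binds titin near the M-band, fell by 2.73, and Obsl1, an obscurin-like protein, fell least, by 1.02. The fall of Obsl1 was lost with total counts alone (0.04), while the other 7 tested genes kept theirs. With that scaling 10710 of all tested genes were called, 1534 of them lower.

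Genes whose proteins bind titin and take part in signalling or protein turnover fell about as often as tested genes at large: of 9 listed, 6 were tested, and 2 fell, against 33.1% of all tested genes. The other 4 were not called, and the median log2 fold change was −0.42. Fhl2, a LIM-only protein at the titin N2B region, fell from 1793 ± 292 to 216 ± 196 CPM (−3.05, edgeR adjusted p = 1.87e-08, and −3.60 without IZ replicate 1), and Nbr1, an autophagy receptor bound by the titin kinase, fell by 0.61 (with total counts alone it was 0.45 higher). Ankrd1, the stretch-responsive ankyrin repeat protein of the titin spring, went from 1535 ± 287 to 1001 ± 720 CPM (−0.62, adjusted p = 0.0624), where IZ replicate 1 stood at 2762 CPM, above every sham library. Without that library Ankrd1 fell (−1.01, adjusted p = 1.37e-05), as did Sqstm1 (−0.33, adjusted p = 0.00155), so that 4 of the 6 were lower. Fhl1 (−0.11), Hspb1 (0.10) and Sqstm1 (−0.23) were not called by edgeR on all libraries, and Hspb1 was at −0.07 without IZ replicate 1. Sqstm1 also fell by edgeR without sham replicate 2 (−0.27, adjusted p = 0.0430) and by the DESeq2 Wald test on all libraries (adjusted p = 0.0342). That test called 4 of the 9 listed genes lower, not the same 4, since Ankrd1 was not called by it. With total counts alone 1 of the 6 fell, Fhl2, 4 rose, and Ankrd1 turned to 0.36 without a call. That scaling called 10710 of all tested genes, 1534 of them lower. Rbm20, the splicing factor that sets the length of the titin spring, fell from 106 ± 12.6 to 11.1 ± 11.5 CPM (−3.32, SE 0.33, adjusted p = 6.83e-09), and −3.99 without IZ replicate 1. Relative to the reference its log2 fold change was 0.01 (adjusted p = 0.966), with either sign among the alternatives.

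The genes most like each of the 9 over the 17 libraries were found by the root mean square difference of log2 CPM, each gene centred on its own sham mean, among 2766 genes with a sham mean of at least 50 CPM. Ttn was nearest to Ldb3 (0.17), and Actn2 and Myom1 were nearest to each other (0.16). Ldb3 was nearest to Homer2 (0.15), Nexn to Idh3g (0.15), Csrp3 to Myo18b (0.17), Myoz2 to Vegfb (0.19) and Myom2 to Chchd10 (0.20). Tcap had the most distant nearest gene, Tnni3 of the reference (0.23). These differences are on the log2 scale and carry no test, and all 17 libraries share the split between the groups.

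Other muscle and vessel markers were checked for the tissue taken. Of all tested genes 36.3% rose and 33.1% fell. Skeletal muscle markers were low in both groups, with a summed level of 19.5 to 58.0 CPM in sham and 14.5 to 40.2 CPM in the IZ, Myh4 at 0 in every library, and 3 of 12 tested, of which Tnnt3 rose (3.18), Mybpc2 fell (−1.40, a call lost with total counts alone at −0.40, and −2.03 without IZ replicate 1) and Tnni2 was at 1.02 (adjusted p = 0.0530), and was called higher without sham replicate 4, without IZ replicate 1, 5 or 7, with upper quartile scaling, with total counts alone and with no filter. Of the atrial markers Myl7 and Myl4 fell (−4.97 and −3.35), and together with Sln they summed to 14.9 to 442 CPM in sham and 2.24 to 23.1 CPM in the IZ, so that sham libraries differed in them more than in any of the 9 genes. Of 5 smooth muscle markers 3 rose (Tagln, Cnn1 and Acta2), against 36.3% of all tested genes, and 2 fell, against 33.1%. The 2 were Smtn and Myh11, neither called with total counts alone. The 5 summed to 222 to 514 CPM in sham and 613 to 1542 CPM in the IZ. Of 6 endothelial markers 2 fell, against 33.1% of all tested genes (Kdr −1.70 and Egfl7 −0.66, the latter 0.39 higher with total counts alone), with 441 to 874 CPM in sham and 331 to 538 CPM in the IZ. Their part in the falls of the 9 genes was not tested.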

How the data were processed

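Transcript ends were sequenced by massive analysis of cDNA ends with molecular identifiers. The authors trimmed reads with Cutadapt, mapped them to mm10 and counted them per gene with HTSeq (the submitters' processing notes list Bowtie2). The values as deposited are raw counts without any normalization, and all 17 columns were used. The annotation release was not given in the sources used here. Names and positions came from GENCODE M21 (GRCm38), where 31521 of 31647 features matched, 35 others being merged genes. Genes passed filterByExpr (minimum 10 counts) and were tested with the two-sided quasi-likelihood F-test of edgeR 4.0.16 in R 4.3.3 on all libraries, TMM scaled, without covariates. Adjusted p values are Benjamini-Hochberg over 12301 features, threshold 0.05. The reference fit used the same test with the summed counts of 8 genes as library size and no TMM. Values are mean ± SD. The p values rest on the spread between these mice, with each gene's variance drawn by edgeR toward a trend over all tested genes. On the reference scale the standard errors of the 9 genes all lay between 0.28 (Tcap) and 0.30 (Nexn). The p values and intervals there do not measure the spread of each gene alone.

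In simulated data with 200 genes changed by 1 (log2), the TMM fit called 81% of them, with 2.99% of calls unchanged genes. The reference fit called 13%, with 0%. In the real data the TMM fit called 69.5% of genes, so the simulation does not measure its accuracy there. No library was a copy of another (chi-square per gene 2.56 to 281). Near-identical 3′ ends were sought with BLAST 2.17.0 (last 500 bases, at least 100 bases at 95%). Named genes are the 9, their family relatives, Rbm20, the nearest profiles, overlapping features and, per other list, the 2 highest and 2 lowest log2 fold changes; genes completing a count of 5 or fewer were named after their values were seen. The genes and lists were chosen with earlier results of these data known. Alternatives were other scalings, filters, DESeq2 1.42.0, other references, a replicate block and fits without each library in turn. Myoz3 and Bmp10 were not analysed here. Python 3.11.15, NumPy 2.4.6, pandas 2.3.3 and Matplotlib 3.10.9 were used for the annotation and plots.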

Additional observations from a re-analysis of the deposited data

Results flagged for a closer look

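IZ replicate 1 lay far above the other 8 IZ libraries in CPM of each of the 9 genes. The gap to the next library, as a fraction of the whole range of the 9 IZ libraries, was 0.816 for Ttn, 0.888 for Actn2, 0.833 for Myoz2, 0.824 for Tcap, 0.868 for Ldb3, 0.731 for Csrp3, 0.727 for Nexn, 0.847 for Myom1 and 0.702 for Myom2, each above the 95% critical value of Dixon's test for 9 values. Chance flags about 1 in 20 groups, and here 9 of 36 groups of values were flagged, all of them this library, whose values for the 9 genes share 1 tissue sample. Per 1000 reference counts no library of either group was flagged. The reference genes made up 3.19% of its counts, against 0.449 to 1.004% in the other IZ libraries, and its fibroblast and macrophage marker sums (12250 and 1836 CPM) were the lowest of the IZ. The part of these measures in the high values was not tested.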

How the results depend on the processing

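All 9 genes kept their fall and its call in the 25 alternatives to the TMM fit, over log2 fold changes of −5.04 to −3.42 for Tcap, −3.70 to −2.08 for Ttn and −2.63 to −1.26 for Nexn. The weakest falls came with total counts alone, where 1534 genes were called lower of 10710 called, against 4074 of 8544, and 5 other Z-disc genes rose and 7 fell. It turned the sign of Des (0.73), Palld (0.92), Nbr1 (0.45), Fhl1 (0.94), Sqstm1 (0.83) and Egfl7 (0.39), all called higher there, and of Obsl1 (0.042), Ankrd1 (0.36) and Myh11 (0.15), not called there. That scaling moved the median of all genes to 1.13, upper quartile scaling to 0.17, no filter to 0.24 and the DESeq2 Wald test to −0.20. A minimum mean of 50 counts left 5239 genes called and 2492 lower, since fewer genes were tested. Omitting each library in turn gave 7962 to 8614 genes called, 3807 to 4238 of them lower.

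The calls relative to the reference depended on its genes. With the second reference 8 of the 9 were higher and 0 lower by edgeR, Tcap being the exception, and 2 were higher without Myh6 and 2 without Myl2, the reference's most abundant gene. The DESeq2 Wald test on the reference gave 5 higher, Myoz2 being added, and omitting each library 3 to 5, the 5 without IZ replicate 1. The main reference fit called 97.0% of all tested genes higher and 0.528% lower. These shares were not obtained for the other fits, so their counts cannot be set against all tested genes. The cause of this dependence was not tested.

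The replicate numbers did not pair the mice: deviations of same-numbered libraries correlated at −0.216 to 0.128 over genes, and 1 of 8 libraries matched its own number best. With the replicate block, in which IZ replicate 9 has no partner, 8078 genes were called, 3858 of them lower, with all 9 genes among them, and relative to the reference 2 genes were higher (Actn2 and Myom1 lost) and 1 lower. Over all results and alternatives, 1853 of 1945 values kept their direction and call, or stayed close where they are counts, medians or shares. Beside the signs turned by total counts, 4 values near 0 turned sign without a call in the fits concerned. Omitting each library in turn gave −0.033 to 0.17 for Pdlim4 (−0.0055 with the block), −0.052 to 0.11 for Dcn, −0.071 to 0.17 for Hspb1 and, relative to the reference, −0.042 to 0.055 for Rbm20, which stood at −0.12 without Myh6 and −0.20 without Myl2. With the block Ankrd1 was lower (−0.84). Depth limited the lowest IZ values, such as Myot.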
